A study of Homo sapiens with 68 samples.

Results

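The ATP-binding cassette (ABC) drug transporters ABCB1, ABCC1, ABCC3, ABCC4, ABCC5 and ABCG2 were followed in A673 Ewing sarcoma cells exposed to ARA-C, doxorubicin or puromycin. All 10 probe sets that the array annotation gives to these 6 genes were taken, out of 22930 listed on the array. Of the 10, 9 were among the 22215 tested, and the remaining one, a second ABCC4 probe set, belongs to the array's control probe sets and is given by its signals alone.

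ABC transporters are membrane proteins that hydrolyse ATP to carry substrates across a membrane. Those described here sit in the plasma membrane, move drugs or drug conjugates out of the cell, and are known from cultured tumour cells that have become resistant to several unrelated drugs. ABCB1 (P-glycoprotein) carries bulky hydrophobic compounds such as anthracyclines. ABCC1 and ABCC3 carry drugs and organic anions, among them glutathione and glucuronide conjugates. ABCC4 and ABCC5 carry cyclic nucleotides and phosphorylated nucleoside analogues. ABCG2, also called breast cancer resistance protein, works as a dimer of identical subunits and carries several anticancer drugs.

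A673 is an established cell line that carries the EWS/FLI fusion oncogene, which every group shared. ARA-C (cytarabine) is a nucleoside analogue that is built into DNA, doxorubicin is an anthracycline that poisons topoisomerase II, and puromycin ends peptide chains early. ARA-C was given at 0.17 or 0.34 μM, doxorubicin at 59.88 or 119.76 nM and puromycin at 0.09 or 0.18 μM, in each case the EC50 and 2 times the EC50, for 24 h, 3 days or 5 days. Vehicle (DMSO) cells gave 6 arrays at 24 h, 5 on day 3 and 6 on day 5. Every treated group had 3 arrays, apart from doxorubicin at 119.76 nM on day 5, with 2, and puromycin at 0.18 μM on day 5, with 1. Replicate 3 of puromycin at 0.09 μM on day 5 was left out, so that 67 of 68 arrays were used and that group held 2. The titles call the replicates biological without saying what separated them (cultures, wells or days), and the p-values measure the spread between these arrays.

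The values are MAS5 signals, a linear measure of probe set brightness scaled to a common mean of 1094 to 1103 per array. Signals at or under 10, called the floor here, were set to 10 before the log2 scale was taken. At the floor lay a median of 19.9% of an array's probe sets. In 2 arrays, replicate 3 of ARA-C 0.17 μM day 3 and replicate 2 of ARA-C 0.34 μM 24 h, the dim signals were raised, with a 10th percentile of 34.5 and 22.1 against a median of 3.4 over all arrays. The 10th percentile was 12.4 in the lone array of puromycin at 0.18 μM on day 5. Under doxorubicin at 119.76 nM on day 5 it was 6 and 7.6, against 2.7 to 4 in vehicle arrays. These arrays stayed in when the 2 above were left out as an alternative. The part of their dim signals in rises near the floor was not tested. Of 7 defining genes of A673 5 were measured, and none of these was at the floor on its median array. The summed signal of 8 blood cell markers ran from 93.8 to 781.7 in the arrays used and stood at 89840 in the array left out. The log2 ratio of the 3′ to the 5′ probe sets of ACTB, a measure of how far the RNA or its copies were shortened, ran from 0.29 to 2.08 in vehicle arrays. It stood between 2.88 and 5.07 for ARA-C at 0.17 μM on day 5, between 4.1 and 5 for doxorubicin at 119.76 nM on day 5, and at 4.13 for puromycin at 0.18 μM on day 5. These arrays, and those of doxorubicin at 59.88 nM (2.13 to 2.93) and puromycin at 0.09 μM (2.1 to 2.45) on day 5, lay above every vehicle array. A fit with the ratio as a covariate rests there on a slope shared by all groups. It cannot separate the ratio from the treatment in those groups. Arrays of vehicle replicates 4 to 6, ARA-C at 0.34 μM and puromycin at 0.18 μM on day 5 lay in plate rows G-H, and all others in rows A-F. On day 5 the vehicle arrays of the 2 plate parts differed. The ACTB ratio was 1.92 to 2.08 in rows A-F and 0.53 to 0.66 in rows G-H. The median signal was 108.7 to 119.7 in rows A-F and 154.5 to 157.8 in rows G-H. Unless stated, changes are against the vehicle arrays of both parts. In such bulk samples, fewer cells that express a gene and less RNA per cell cannot be told apart.

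The upstream windows of 3 of the genes are printed here because these genes had the rises under doxorubicin or ARA-C that are described later. They are the 250 bases before a RefSeq start site on GRCh38.p14, 5′ to 3′ on the strand of the gene (the minus strand for all 3), with matches to 4 short motifs in capitals. The motifs searched, on both strands, were the CCAAT box (CCAAT or ATTGG), the GC box (GGGCGG or CCGCCC), the AP-1 site (TGANTCA) and the TATA box (TATAAA or TTTATA).
ABCB1, chr7:87600885-87601134: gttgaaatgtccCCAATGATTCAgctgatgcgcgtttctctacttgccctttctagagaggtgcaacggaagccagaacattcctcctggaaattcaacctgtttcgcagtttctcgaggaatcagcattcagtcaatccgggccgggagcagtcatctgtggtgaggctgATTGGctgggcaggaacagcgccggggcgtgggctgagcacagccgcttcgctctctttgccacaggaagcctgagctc
ABCC5, chr3:184017885-184018134: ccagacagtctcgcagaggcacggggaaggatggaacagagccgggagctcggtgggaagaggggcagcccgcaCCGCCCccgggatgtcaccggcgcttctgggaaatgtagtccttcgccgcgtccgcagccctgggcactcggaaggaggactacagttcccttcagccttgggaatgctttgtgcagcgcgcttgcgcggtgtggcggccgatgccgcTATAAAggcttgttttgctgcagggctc
ABCG2, chr4:88158860-88159109: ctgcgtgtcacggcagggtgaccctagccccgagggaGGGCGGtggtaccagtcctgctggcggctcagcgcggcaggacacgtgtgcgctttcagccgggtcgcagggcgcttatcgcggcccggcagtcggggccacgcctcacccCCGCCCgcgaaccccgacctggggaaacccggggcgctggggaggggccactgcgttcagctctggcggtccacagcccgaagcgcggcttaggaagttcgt
The ABCB1 window held CCAAT box matches that begin 238 and 79 bases before the start site, and an AP-1 match at 234 bases that overlaps the first of them. The ABCC5 window held a GC box match at 176 bases and a TATA box match at 28 bases before the start site. The ABCG2 window held GC box matches at 213 and 102 bases. Of 35116 such windows, 32% held a CCAAT box match, 42.6% a GC box match, 6.57% an AP-1 match and 10.7% a TATA box match. ABCG2 has 5 such windows, of which 1 that overlaps the printed one also held 2 GC box matches and the other 3 held no match. A second ABCB1 window and the ABCC4 window held no match, and ABCC1 and ABCC3 are named without a window. These matches are descriptions of the letters alone.

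In vehicle cells the members split into those well above the floor and those near it. The leading ABCC1 probe set, 202804_at (the gene lies at chr16:15949143-16143053), was never at the floor, with 1679 as its lowest, 2181 as its median and 2969 as its highest signal over the 17 vehicle arrays. Its mean log2 signal over all arrays stood at the 88.3 percentile of the tested probe sets. The leading ABCC4 probe set, 203196_at (gene at chr13:95019835-95301451), had 1443, 2037 and 2320 in the same order, and stood at the 87.6 percentile. ABCC5 209380_s_at (gene at chr3:183919934-184017884) had 300.5, 380.1 and 520.3, and the second ABCC1 probe set, 202805_s_at, had 298.8, 507.4 and 752. These 4 and the ABCC4 control probe set HC-AF071202_at, with 75.95, 274.7 and 364.3, were above the floor on all 67 arrays.

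The other 5 probe sets lay near the floor, with mean log2 signals of 3.39 to 4.66 against 3.32 for the floor itself. ABCC3 209641_s_at was at the floor on 64 of 67 arrays (95.5%), including all 17 vehicle arrays, and 18 of the 21 groups were at the floor on every array. ABCB1 209993_at was at the floor on 46 arrays (68.7%) and on 10 of 17 vehicle arrays. ABCC3 214979_at (gene at chr17:50634881-50692253) was at the floor on 27 arrays and ABCG2 209735_at (gene at chr4:88090264-88231626) on 23, each on 7 of 17 vehicle arrays. ABCB1 209994_s_at (gene at chr7:87503017-87713295) was at the floor on 13 arrays and on 4 of 17 vehicle arrays, with a median vehicle signal of 20.36. No detection calls came with the signals, so that presence in vehicle cells cannot be stated for these 5. The floored log2 scale is used for every change that follows. On it, a rise from under the floor to above it is smaller than in the signals themselves. How much of these dim signals is background cannot be stated.

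**Figure D1:**
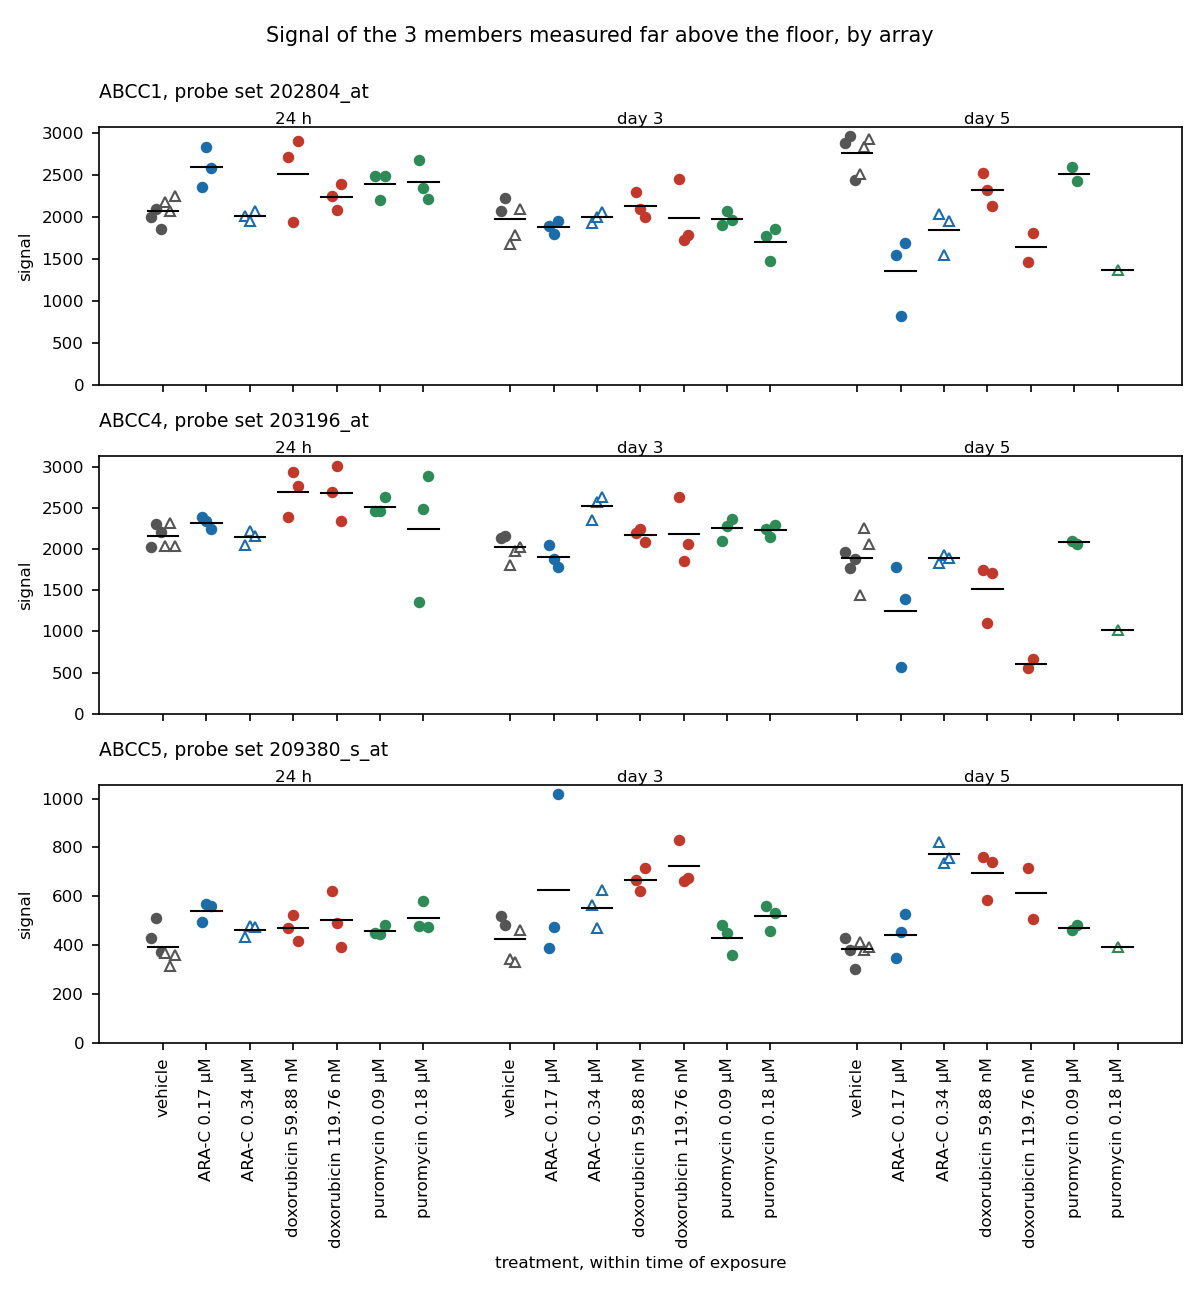
MAS5 signal (linear axis) of the leading ABCC1, ABCC4 and ABCC5 probe sets, all above the floor on every array, by treatment within time, for the 67 arrays used (filled circles, plate rows A-F; open triangles, rows G-H; black bars, group means). ABCC1 202804_at lay between 824.4 and 1696 under ARA-C at 0.17 μM on day 5, below the vehicle arrays of that day (2449 to 2969), and ABCC5 lay between 737.5 and 820.9 under ARA-C at 0.34 μM on day 5, above vehicle (300.5 to 429.9).

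ABCC1, which exports glutathione conjugates and anthracyclines, was lower on day 5 under ARA-C at both doses. On 202804_at the 6 vehicle arrays of day 5 ran from 2449 to 2969, with a mean log2 signal of 11.43, the highest of the 21 groups. The 3 arrays of ARA-C at 0.17 μM read 1550, 824.4 and 1696, and those at 0.34 μM read 2037, 1549 and 1954. No treated array reached the lowest vehicle array. The changes were -1.09 (SE 0.13, limma adjusted p = 6e-10) and -0.59 (SE 0.13, adjusted p = 0.00041). After quantile normalization the first was -0.32, and after a shift of every array to a common median -0.67. With the ACTB ratio as a covariate it was -1.05.

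At 24 h and on day 3 no compound passed the test on the same probe set, although ARA-C at 0.17 μM read 2357, 2836 and 2587 at 24 h, above the vehicle arrays (1859 to 2257), a change of 0.32. Doxorubicin at 119.76 nM gave 1466 and 1813 on day 5, below all 6 vehicle arrays, a change of -0.76 (SE 0.15, adjusted p = 2.7e-05) that was -0.35 and did not pass after the common-median shift and turned to 0.07 after quantile normalization. Doxorubicin at 59.88 nM gave 2523, 2324 and 2138, which overlapped vehicle (-0.25, adjusted p = 0.14). Puromycin at 0.09 μM gave 2597 and 2436 (-0.13). The lone array of puromycin at 0.18 μM read 1375, a change of -1 with no replicate check, and -0.09 after quantile normalization.

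The vehicle level of ABCC1 itself changed with time. From day 3 to day 5 the vehicle arrays rose from 1679-2225 to 2449-2969 without overlap, a change of 0.49 (SE 0.11, adjusted p = 0.00079). Among all probe sets, 21.3% passed in this comparison. After the common-median shift the rise was 0.33 and did not pass the test.

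The second ABCC1 probe set, 202805_s_at, was called lower in 10 of the 18 treated groups, but its signal moved with the ACTB ratio and with the plate rows. On day 5 it read 161.1, 135.9 and 128.9 under ARA-C at 0.17 μM and 359.1, 257.6 and 222.9 at 0.34 μM. Vehicle read 387, 300.3 and 323.8 in rows A-F and 752, 740.9 and 744.4 in rows G-H. The ranges of the vehicle arrays in the 2 plate parts did not overlap, and ARA-C at 0.34 μM lay below its own part (G-H), with a change of -0.87 (SE 0.26, adjusted p = 0.0097) against all 6 vehicle arrays that did not pass without its replicate 3 (-0.72) and of -1.44 against rows G-H. The change under ARA-C at 0.17 μM was -1.82 (SE 0.26, adjusted p = 4.9e-08), -1.25 against vehicle of the same rows and -0.65, no longer past the test, with the ACTB ratio as a covariate. At 0.34 μM on day 3 it read 233.3, 245.1 and 176.1 against 507.4 to 747.4 in vehicle, a change of -1.43 (SE 0.27, adjusted p = 6.9e-05) that was -0.87 and still passed with the covariate. At 0.17 μM on day 3 it read 339, 273.5 and 463.7, also below vehicle, a change of -0.74 (adjusted p = 0.043) that did not pass without replicate 2 (-0.56) or with the covariate (-0.36).

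Doxorubicin gave 188.8, 149.5 and 191.5 on 202805_s_at on day 5 at 59.88 nM (-1.51, SE 0.26, adjusted p = 4e-06), and 87.52 and 143.8 at 119.76 nM (-2.16, SE 0.3, adjusted p = 2.3e-08). All 5 arrays were below every vehicle array. With the covariate the values were -0.93, which passed, and -0.57, which did not. At 24 h doxorubicin at 119.76 nM read 347.3, 179.2 and 204.4 against 298.8 to 535.3 (-0.87, adjusted p = 0.018), and puromycin at 0.09 μM read 278.6, 230.2 and 215.6 (-0.83, adjusted p = 0.032). Neither passed with the covariate (-0.4 and -0.35). The first did not pass without replicate 2 or 3 of its group (-0.67 and -0.77), and the second was lost on leaving out any 1 of several arrays, vehicle replicate 1 of 24 h among them (adjusted p = 0.052).

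The smallest signal of 202805_s_at, 17.31, was that of the lone array of puromycin at 0.18 μM on day 5, where the ACTB ratio was 4.13. Puromycin at 0.09 μM on day 5 read 244.3 and 269, below all vehicle arrays (-0.96, SE 0.3, adjusted p = 0.02) but at -0.39 and not past the test against vehicle of the same plate rows. Over the 67 arrays the signal of 202805_s_at had a Pearson correlation of -0.83 with the ACTB ratio, and of -0.71 within groups (66 arrays in groups of at least 2). For 202804_at the same correlations were -0.31 and -0.05. The 2 probe sets of ABCC1 differed in where changes were called, and both were called lower on day 5 under ARA-C at both doses and under doxorubicin at 119.76 nM before rescaling. Both were also lower on the lone array of puromycin at 0.18 μM on day 5 (-1 for 202804_at and -4.85 for 202805_s_at).

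**Figure D2:**
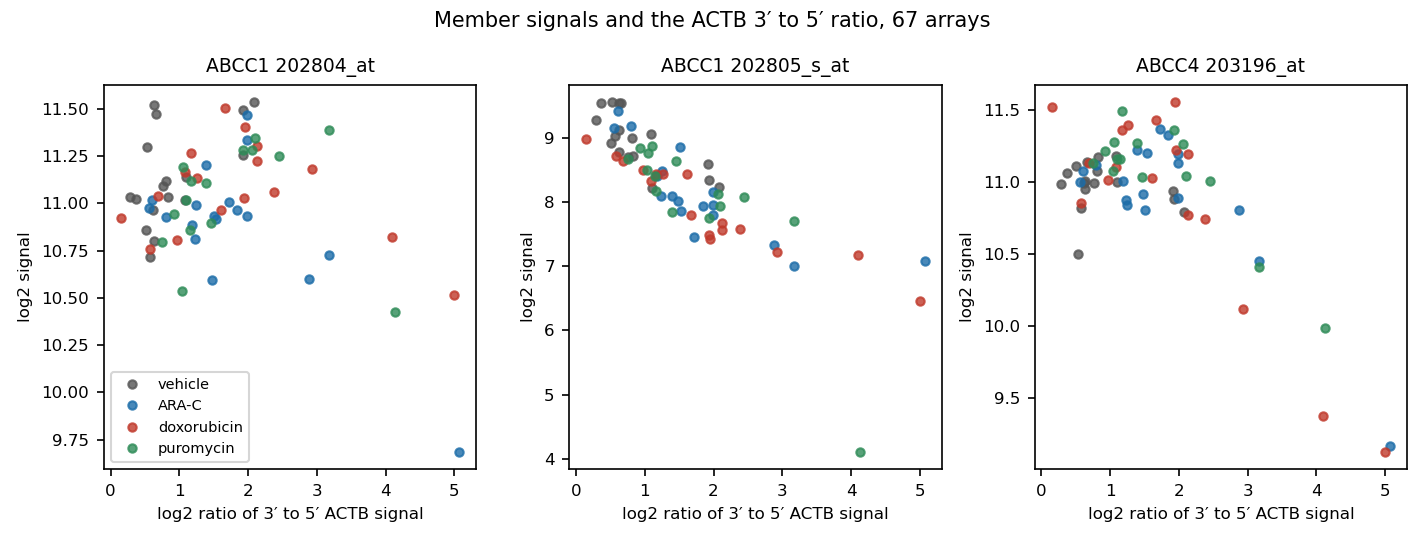
Log2 signal of both ABCC1 probe sets and of ABCC4 203196_at (vertical axes) against the log2 ratio of the 3′ to 5′ ACTB probe sets, with 1 point per array (67 arrays) coloured by compound. ABCC1 202805_s_at and ABCC4 203196_at went down as the ratio went up (r of -0.83 and -0.74 over arrays), and ABCC1 202804_at less so (r of -0.31).

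ABCC4, an exporter of cyclic nucleotides and nucleoside monophosphate analogues, had its lowest level under doxorubicin at 119.76 nM on day 5. Vehicle arrays of day 5 ran from 1443 to 2251 on 203196_at, and the 2 treated arrays read 558.3 and 662.8. Both lay below all vehicle arrays, and among the other arrays only replicate 2 of ARA-C at 0.17 μM on day 5 (572.5) lay as low. The change was -1.63 (SE 0.21, adjusted p = 1.9e-09), -0.69 with the ACTB ratio as a covariate and -1.22 after the common-median shift, and it passed in both. The ACTB ratios of this group and of vehicle did not overlap, so the covariate cannot separate the ratio from the treatment here. At 59.88 nM the arrays of day 5 read 1744, 1109 and 1711 and overlapped vehicle (-0.33, adjusted p = 0.14).

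Under ARA-C at 0.17 μM on day 5 ABCC4 read 1784, 572.5 and 1398. The first array lay inside the vehicle range. The change of -0.74 (SE 0.18, adjusted p = 0.00045) rested on replicate 2, without which it was -0.25 and did not pass (adjusted p = 0.21). It was -0.04 with the covariate and turned to 0.07 after quantile normalization. ARA-C at 0.34 μM read 1835, 1933 and 1894 on day 5, inside the vehicle range (0.01).

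The lone array of puromycin at 0.18 μM on day 5 read 1015 for ABCC4 (-0.89, 0.07 after quantile normalization), and puromycin at 0.09 μM read 2104 and 2060 (0.15). At 24 h and on day 3 no change of ABCC4 passed the test on the scale used here. With the ACTB ratio as a covariate, rises passed at 24 h under doxorubicin (0.44 at 59.88 nM, 0.59 at 119.76 nM) and puromycin at 0.09 μM (0.51). On day 3 one passed under ARA-C at 0.34 μM (0.66). Apart from doxorubicin at 59.88 nM, the ratios of these groups did not overlap vehicle of the same time. After the common-median shift ABCC4 passed under puromycin at 0.09 μM on day 5 (0.63, median of all probe sets 0.34). Its correlation with the ACTB ratio was -0.74 over arrays and -0.61 within groups. The control probe set of ABCC4, HC-AF071202_at, read 130.8, 75.95 and 113.6 in the vehicle arrays of day 5 in rows A-F and 362.8, 307.5 and 303.9 in rows G-H, the same split as that of 202805_s_at, with correlations of -0.77 and -0.7.

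ABCC5, which also exports cyclic nucleotides and nucleotide analogues, rose under doxorubicin on both later days. On day 3 vehicle read 331.7 to 520.3, and doxorubicin read 665, 623.5 and 716.9 at 59.88 nM and 832.7, 664.5 and 673.8 at 119.76 nM. On day 5 vehicle read 300.5 to 429.9, and doxorubicin read 759.2, 583.9 and 739.9 at the lower dose and 718 and 507.7 at the higher. None of these 11 arrays overlapped vehicle of its day.

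The changes were 0.67 (SE 0.19, adjusted p = 0.0066) and 0.78 (SE 0.19, adjusted p = 0.0013) on day 3, and 0.86 (SE 0.18, adjusted p = 1e-04) and 0.67 (SE 0.21, adjusted p = 0.0062) on day 5. Against vehicle of the same plate rows, with 2 arrays on day 3, the day 3 values were 0.41 and 0.52 and did not pass. Without replicate 1 of doxorubicin at 119.76 nM on day 5, that change was 0.42 and did not pass. With the ACTB ratio as a covariate the 4 values were 0.68, 0.79, 0.88 and 0.74, of which the last did not pass.

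ABCC5 also rose under ARA-C at 0.34 μM on day 5, with 820.9, 737.5 and 756.2, a change of 1.02 (SE 0.18, adjusted p = 1.5e-05) and of 0.96 against vehicle of the same rows. This was its largest change on the scale used here, but after the common-median shift it was 0.99, below those of doxorubicin on day 5 (1.21 at 59.88 nM and 1.07 at 119.76 nM), and after quantile normalization it was 1.16 against 1.44 and 1.77. ARA-C at 0.17 μM read 348.4, 452.2 and 527.1 on that day, of which 1 array lay inside and 2 above the vehicle range (0.2, not past the test, and 0.61 and past it after the common-median shift). At 24 h it read 495.3 to 569.8 against 316.1 to 511.9 in vehicle, a change of 0.48 that did not pass. That change was 0.51 and passed after the common-median shift, and it passed at 0.48 without the 2 arrays of raised dim signals. On day 3 it read 389.6, 473.2 and 1020, and the last of these, the highest signal of ABCC5 among the arrays used, came from the array with raised dim signals. Puromycin read 461.9 and 482 at 0.09 μM on day 5 (0.31) and 391.9 at 0.18 μM (0.04), and no puromycin group passed the test. After the common-median shift puromycin at 0.09 μM passed at 24 h (0.56) and on day 5 (0.79), and at 0.18 μM at 24 h (0.49). The medians of all probe sets were then 0.22, 0.34 and 0.08 in the same order. The signal of ABCC5 had correlations of 0.11 and -0.05 with the ACTB ratio.

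**Figure D3:**
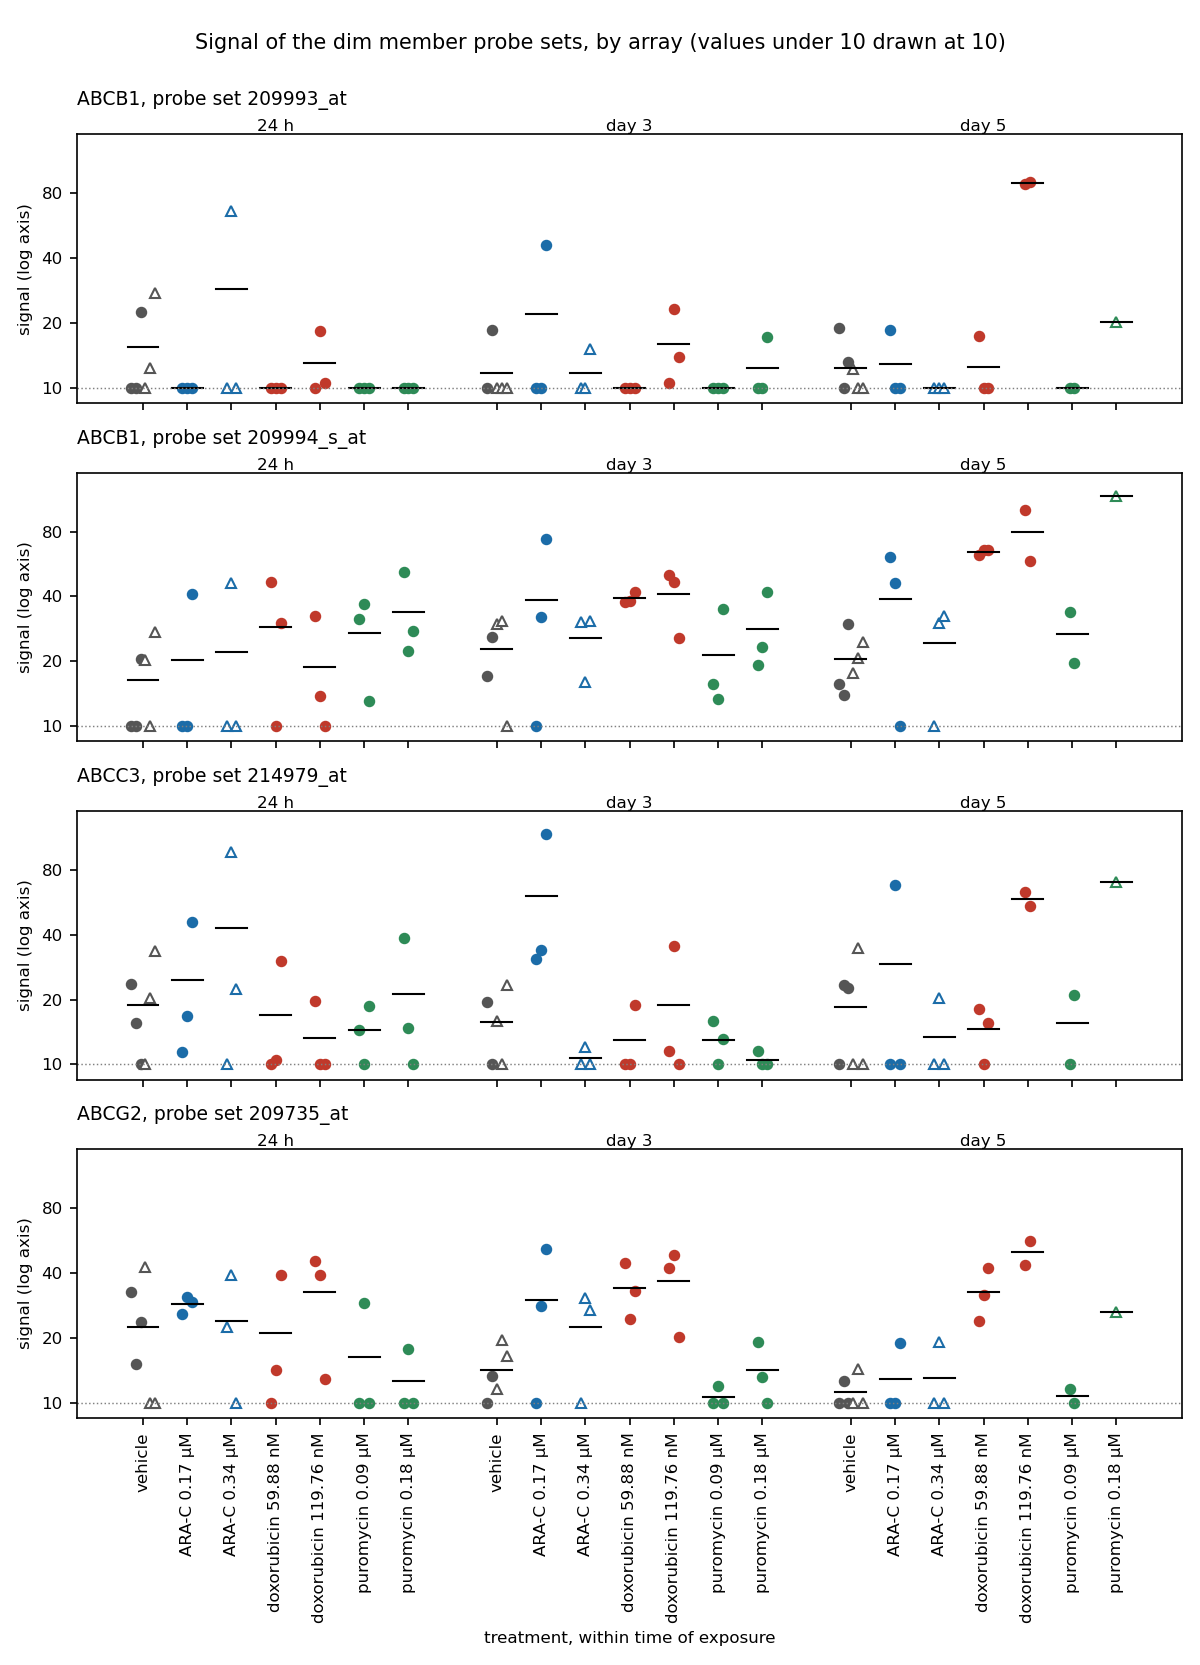
MAS5 signal of 4 of the 5 probe sets near the floor (both of ABCB1, ABCC3 214979_at and ABCG2), by treatment within time, on a log axis with values under 10 drawn at 10 (67 arrays; filled circles, plate rows A-F; open triangles, rows G-H; black bars, group means). The arrays of doxorubicin at 119.76 nM on day 5 lay above vehicle of that day for ABCB1 209993_at (88.6 and 89.96 against at most 18.93) and ABCG2 (43.49 and 56.33 against at most 14.32).

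ABCG2, which exports several anticancer drugs, was higher under doxorubicin from day 3, although no array used read above 56.33. On day 5 vehicle read 3.356, 12.54, 1.112, 4.042, 14.32 and 6.723, with 4 of the 6 at the floor. Doxorubicin read 23.9, 31.73 and 42.05 at 59.88 nM and 43.49 and 56.33 at 119.76 nM, all above the vehicle arrays of the day. The changes were 1.52 (SE 0.47, adjusted p = 0.0065) and 2.17 (SE 0.54, adjusted p = 0.00058). On day 3 vehicle read 5.85 to 19.61, and doxorubicin read 44.52, 24.53 and 32.87 at the lower dose and 41.95, 48.44 and 20.09 at the higher. These 6 arrays also lay above vehicle, with changes of 1.26 (adjusted p = 0.058), which missed the threshold, and 1.32 (SE 0.48, adjusted p = 0.04).

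The rise of ABCG2 at 59.88 nM on day 5 did not pass without replicate 3 (1.32, adjusted p = 0.051) or with a floor of 32 (0.13), and that at 119.76 nM on day 3 was lost on leaving out any 1 of 5 arrays, among them its own replicate 2 (1.07, adjusted p = 0.2). The rise at 119.76 nM on day 3 did not pass in 6 of 13 alternatives, among them vehicle of the same plate rows (1.58, limma adjusted p = 0.074). That at 119.76 nM on day 5 did not pass in 1 of 13 (limma adjusted p up to 0.073), with values from 0.63 to 3.27. The ACTB covariate left all 3 called rises past the test. Under ARA-C and puromycin no group passed. Vehicle at 24 h read 7.9 to 42.54, higher than on the later days at its upper end, and doxorubicin at 24 h read 4.523 to 39.06 and 12.84 to 45.63, which overlapped it.

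ABCB1, the multidrug efflux pump P-glycoprotein, was higher on day 5 of doxorubicin on both of its probe sets at the higher dose. On 209993_at vehicle of day 5 read 18.93, 7.547, 13.21, 12.22, 1.228 and 6.387, and doxorubicin at 119.76 nM read 88.6 and 89.96. The change was 2.89 (SE 0.46, adjusted p = 3.2e-07), which passed under every alternative that kept this dim probe set and was 2.71 with the ACTB covariate. At 59.88 nM the same probe set read 17.52, 9.145 and 1.296, inside the vehicle range (0). On the other arrays used it lay between 0.4152 and 66.1, the highest from one of the arrays with raised dim signals.

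On 209994_s_at vehicle of day 5 read 14 to 29.76. Doxorubicin read 62.34, 65.81 and 65.52 at 59.88 nM and 100.8 and 58.51 at 119.76 nM, above all vehicle arrays, with changes of 1.71 (SE 0.56, adjusted p = 0.012) and 1.96 (SE 0.65, adjusted p = 0.0093). Neither passed with the ACTB ratio as a covariate (1.24 and 0.68), and the second did not pass without replicate 1 (1.57, adjusted p = 0.14). On day 3 the arrays read 37.64, 38.16 and 42.01 at 59.88 nM, above vehicle (6.228 to 30.92), a change of 0.9 that did not pass. The lone array of puromycin at 0.18 μM on day 5 read 116.8 on this probe set, the highest signal of any array used, a change of 2.57 (adjusted p = 0.012) that did not pass with the covariate (1.45), and 20.34 on 209993_at.

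ABCC3, an exporter of glucuronides and bile salts, could be followed on 214979_at alone. Under ARA-C at 0.17 μM on day 3 it read 30.75, 33.93 and 117 against 3.499 to 23.25 in vehicle, a change of 1.74 (SE 0.58, adjusted p = 0.027). The array at 117 is the one with raised dim signals, and without it the change was 1.12 and did not pass (adjusted p = 0.27 when both such arrays were left out). Leaving out vehicle replicate 2 or 5 of day 3 also lost the call (1.6 in both). Under doxorubicin at 119.76 nM on day 5 it read 62.94 and 54.14 against 3.27 to 34.86, a change of 1.85 (SE 0.65, adjusted p = 0.015) that turned to -0.08 with the ACTB covariate and was lost without either of the 2 arrays. The lone array of puromycin at 0.18 μM on day 5 read 70.08, the highest mean level of the 21 groups, a change of 2.11 (SE 0.87, adjusted p = 0.041) that was 0.43 and did not pass with the ACTB covariate. On 209641_s_at no change passed.

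Over the 18 comparisons with vehicle, the members' calls were fewest at 24 h and most numerous on day 5 of doxorubicin. Under ARA-C at 0.17 μM 0, 2 and 3 of the 9 probe sets were called at 24 h, day 3 and day 5, where 14.4%, 22.7% and 47.6% of all probe sets were. At 0.34 μM 0, 1 and 3 were called, against 9.17%, 18.1% and 25.1%. Under doxorubicin at 59.88 nM these were 0, 1 and 4 against 5.38%, 20.3% and 40.6%. At 119.76 nM they were 1, 2 and 8 against 14.5%, 22.8% and 53.1%.

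The 8 called on day 5 of doxorubicin at 119.76 nM, of which 5 were higher and 3 lower, left out only ABCC3 209641_s_at, and all 6 genes had a call there. In that comparison the median of the 9 members was 0.67 and that of all probe sets -0.25. Under puromycin at 0.09 μM 1, 0 and 1 were called against 10.5%, 3.21% and 17.6%, and at 0.18 μM 0, 0 and 5 against 7.74%, 11.6% and 46.1%, the 5 from the lone array of day 5, whose spread is taken to be that of the other groups.

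Set together, doxorubicin had 11 rises among its 54 pairs of probe set and comparison (20.4%), where 9.44% of all probe sets rose, and 5 falls (9.26%, against 16.7%). ARA-C had 2 rises (3.7%, against 9.67%) and 7 falls (13%, against 13.2%). Puromycin had 2 rises (3.7%, against 4.74%) and 5 falls (9.26%, against 11.4%). Rises thus made a share above the background under doxorubicin and below it under ARA-C, where they numbered 5 after quantile normalization. Under doxorubicin they numbered from 4 to 13 over the alternatives. The 4 came without dim probe sets, where only those of ABCC1, ABCC4 and ABCC5 remained, so that the pairs were fewer than 54. All rises under doxorubicin but those of ABCC5 lay in probe sets near the floor. Of the 11, 5 came from 119.76 nM on day 5, where the 10th percentile of the signals was 6 and 7.6. No share of rises was taken over probe sets near the floor alone. Whether the members exceed equally dim probe sets therefore cannot be stated. No share of rises over all probe sets is given for the alternatives. Under puromycin the share was near the background, and both rises came from the lone array of day 5. Rises under puromycin numbered 7 after the common-median shift. That shift put the median change of all probe sets at 0.22, 0.16 and 0.34 under puromycin at 0.09 μM at 24 h, day 3 and day 5. On the scale used here these medians were -0.1, -0.06 and -0.14. These comparisons share their vehicle arrays. The falls of both ABCC1 probe sets and of ABCC4 made up all the falls called.

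**Figure D4:**
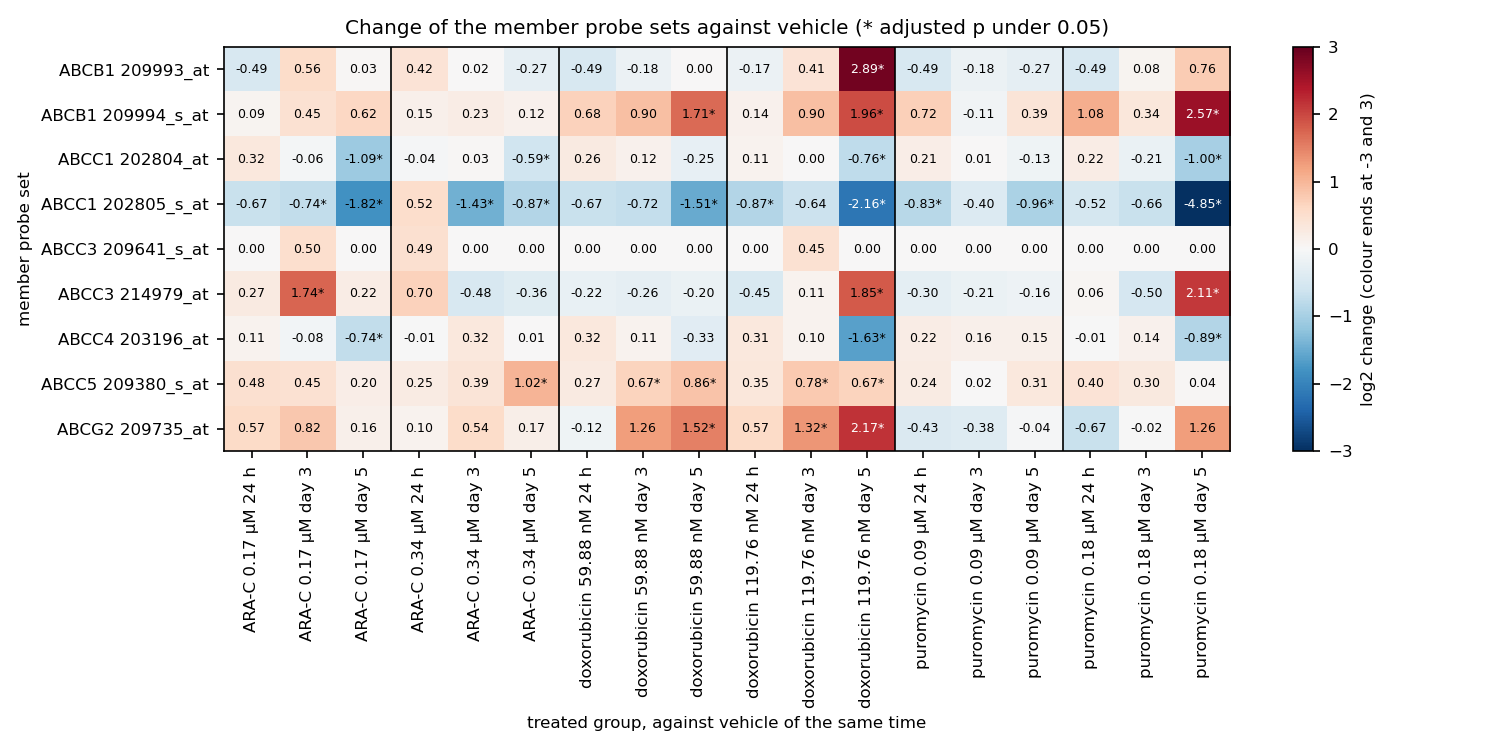
Change of each tested ABC transporter probe set against vehicle of the same time, on the floored log2 scale, for the 18 treated groups (colour and printed number, log2 change; asterisk, limma adjusted p under 0.05; puromycin at 0.18 μM on day 5 is 1 array). Rises under doxorubicin from day 3 lie in ABCC5 and ABCG2 and on day 5 also in ABCB1 and ABCC3 214979_at (the latter at -0.08 with the ACTB covariate), and falls lie in ABCC1 and ABCC4, where those of ABCC1 202804_at under doxorubicin at 119.76 nM, and of ABCC4 under ARA-C at 0.17 μM and puromycin at 0.18 μM, on day 5 turned to 0.07 after quantile normalization.

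The 3 compounds were compared with each other at the EC50, at 24 h and over days 3 and 5, where the mean of the 2 days' differences was taken. At 24 h none of the 9 members differed in any of the 3 pairs by limma, and none at an unadjusted p under 0.05, where 5.66%, 6.86% and 3.3% of all probe sets were called. Over days 3 and 5, ABCC1 202804_at was lower under ARA-C than under doxorubicin (a difference of -0.51, interval -0.73 to -0.3, adjusted p = 0.00026) and than under puromycin (-0.52, interval -0.75 to -0.29, adjusted p = 0.00021). Between doxorubicin and puromycin it differed by -0.01, with a 95% interval of -0.23 to 0.22. After quantile normalization the difference from puromycin was -0.13 and did not pass.

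ABCC5 and ABCG2 were higher under doxorubicin than under puromycin, by 0.6 (interval 0.28 to 0.91, adjusted p = 0.0023) and 1.6 (interval 0.78 to 2.41, adjusted p = 0.0015). With the left-out puromycin array kept, neither passed (0.33 and 0.09), and with a floor of 32 that of ABCG2 was 0.15 and did not pass. In this pair 29.8% of all probe sets were called. ABCC5 was also lower under ARA-C than under doxorubicin (a difference of -0.44, interval -0.74 to -0.14, adjusted p = 0.024), and for ABCG2 the difference was -0.9, which did not pass (interval -1.66 to -0.13). That ABCC5 difference was lost on leaving out any 1 of 6 arrays, the most so without replicate 1 of ARA-C at 0.17 μM on day 3 (-0.3).

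ARA-C against doxorubicin, with 25.2% of all probe sets called, gave in addition a higher ABCC3 214979_at under ARA-C (1.22, adjusted p = 0.046), which did not pass without the arrays of raised dim signals (0.91) or without replicate 2 of ARA-C at 0.17 μM on day 5 (0.76). ARA-C against puromycin, with 40% called, gave lower ABCC1 202805_s_at (-0.6, adjusted p = 0.032; -0.21 with the ACTB covariate and -0.51 without replicate 2 of ARA-C at 0.17 μM on day 3, past the test in neither) and lower ABCC4 (-0.56, interval -0.87 to -0.25, adjusted p = 0.0027; -0.17 after quantile normalization). ABCC4 differed by -0.27 between doxorubicin and puromycin, with an interval of -0.58 to 0.04.

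The higher dose was compared with the lower over 24 h and day 3, the times at which every group had 3 arrays. None of the 9 members differed by limma for ARA-C, doxorubicin or puromycin, and none at an unadjusted p under 0.05, where 3.7%, 2.96% and 0.302% of all probe sets were called. All arrays of ARA-C at 0.17 μM lay in plate rows A-F and all at 0.34 μM in rows G-H, so that dose and plate part cannot be told apart for ARA-C. Day 5 was not tested between doses. There ABCC5 read 737.5 to 820.9 at 0.34 μM and 348.4 to 527.1 at 0.17 μM of ARA-C, without overlap, and ABCC4 read 558.3 and 662.8 at 119.76 nM and 1109 to 1744 at 59.88 nM of doxorubicin, also without overlap. ABCB1 209993_at was above the vehicle range at 119.76 nM and not at 59.88 nM. On day 5 the ACTB ratio differed between the doses too, with 1.25 to 1.99 at 0.34 μM against 2.88 to 5.07 at 0.17 μM of ARA-C, and 4.1 to 5 at 119.76 nM against 2.13 to 2.93 at 59.88 nM of doxorubicin, and its part in these differences was not tested.

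With time, the change of 12 pairs of probe set and treatment differed between day 5 and 24 h by the test of that difference. For doxorubicin at 119.76 nM, where 38.7% of all probe sets differed, ABCC4 went by -1.93 (SE 0.27, adjusted p = 7e-08) and ABCB1 209993_at by 3.06 (SE 0.6, adjusted p = 3.9e-05). For ARA-C at 0.17 μM, where 30.4% did, ABCC1 202804_at went by -1.41 (SE 0.19, adjusted p = 5.4e-08), from 2357-2836 at 24 h to 824.4-1696 on day 5. For ARA-C at 0.34 μM, where 12.5% did, ABCC5 went by 0.76 (SE 0.26, adjusted p = 0.04), which was lost on leaving out single arrays, among them vehicle replicate 2 of 24 h (0.68). For doxorubicin at 59.88 nM (24.9% of all probe sets) 1 member passed, and for puromycin at 0.09 μM (4.34%) none.

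In the order of group levels few neighbours differed beyond their spread, since each range is divided into 20 steps. Over the 21 groups, neighbours in the order of ABCC1 202804_at, from vehicle day 5 (mean log2 11.43) to ARA-C at 0.17 μM on day 5 (10.34), differed by more than their SD in 1 of 20 steps. For ABCC4, from doxorubicin at 59.88 nM at 24 h (11.39) to doxorubicin at 119.76 nM on day 5 (9.25), they did in 3 steps. For ABCC5, from ARA-C at 0.34 μM on day 5 (9.59) to vehicle day 5 (8.57), they did in 0 steps, and for ABCG2, from doxorubicin at 119.76 nM on day 5 (5.63) to puromycin at 0.09 μM on day 3 (3.41), in 1.

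Genes were ranked by the Pearson correlation of their changes over the 18 treated groups with those of each leading member probe set. The candidates were 12018 probe sets of 1 gene symbol with a mean log2 signal above the 40th percentile, before the member's own were removed. The correlations describe groups that share vehicle arrays. For ABCC4 the most similar genes were RINT1 (0.98), EIF1AX (0.969) and CUL2 (0.968), and for ABCC1 UQCRC2 (0.96), PTPRF (0.96) and CCNH (0.951). For ABCG2 they were HPS1 (0.946), GADD45B (0.873) and PMEPA1 (0.856), and for ABCC5 TRAPPC2L (0.865), RGS10 (0.864) and TPM2 (0.855). For ABCB1 the highest was ZNF701 (0.868) and for ABCC3 RPL18 (0.856). The 2 probe sets of ABCC1 had a correlation of 0.7 with each other and those of ABCB1 of 0.54.

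Other genes of drug transport were read at the EC50 as the mean change over days 3 and 5, 1 probe set per gene, where 49.2% of all probe sets were called under ARA-C, 40.8% under doxorubicin and 18.5% under puromycin. Of 38 other ABC transporter genes 27 were measured, 15 of them near the floor. Under ARA-C 5 rose and 2 fell, under doxorubicin 7 rose and 6 fell, and under puromycin 0 rose and 4 fell. ABCB6, a porphyrin transporter, fell under ARA-C (-1.34) and doxorubicin (-1.44), from 456.2 to 798.4 in vehicle on day 5 to 85.55 to 198 and 145.3 to 185. ABCA5 rose under both (1.23 and 1.46), and ABCA8, near the floor, rose under doxorubicin (2.43). Of the 4 ABC proteins without membrane domains, which act in translation, 3 fell under ARA-C (ABCE1 with -0.71), 1 fell under doxorubicin and none was called under puromycin.

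Of 19 uptake carriers, which bring drugs into the cell, 15 were measured and 8 of these lay near the floor. Under ARA-C 2 rose and 3 fell, under doxorubicin 3 rose and 4 fell, and under puromycin 0 rose and 3 fell. SLC29A1, the equilibrative nucleoside transporter that carries ARA-C into cells, fell under all 3 compounds, with changes of -1.65 (SE 0.25) under ARA-C, -1.95 (SE 0.25) under doxorubicin and -1.01 (SE 0.27) under puromycin. On day 5 its signal was 416.8 to 865.6 in vehicle, 77.96 to 154.3 under ARA-C, 98.1 to 162.4 under doxorubicin and 220.5 and 363.4 under puromycin, with no overlap with vehicle. SLC29A2, a further carrier of this kind, also fell (-1.3, -1.54 and -0.58). SLC22A4, an organic cation carrier, rose under doxorubicin (1.97) and fell under puromycin (-1.23). On day 5 the ACTB ratio averaged 3.71 under ARA-C, 2.48 under doxorubicin and 2.28 under puromycin at the EC50, against 1.29 in vehicle, and its part in the changes of these lists was not tested.

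Of 16 genes of glutathione supply and conjugation 15 were measured. Under ARA-C 2 rose and 7 fell, with a median of -0.2 against 0.02 for all probe sets, under doxorubicin 0 rose and 9 fell (median -0.4 against -0.07), and under puromycin 3 rose and 6 fell (-0.32 against -0.1). GSTA4, a glutathione transferase, fell under ARA-C and doxorubicin (-1.75 and -1.72), and GSR, which reduces oxidised glutathione, fell under ARA-C, doxorubicin and puromycin (-1.21, -1.75 and -0.85). The higher ACTB ratios of day 5 went with these falls too, and their part was not tested. SLC7A11, the cystine importer, rose under puromycin (0.61). Of 5 drug resistance proteins outside the ABC family 3 were measured, and only ATP7A (-0.68) and MVP (-1.59) were called, both under puromycin.

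Of 16 transcription factors with reported action on these transporters 14 were measured. Under ARA-C 4 rose and 5 fell, under doxorubicin 4 rose and 2 fell, and under puromycin 2 rose and 2 fell. JUN, a subunit of AP-1, rose by 1.75, 2.15 and 1.26 under ARA-C, doxorubicin and puromycin. On day 5 it read 337.8 to 539.6 in vehicle, 1402 to 2741 under ARA-C, 2746 to 3361 under doxorubicin and 857.3 and 928.9 under puromycin. MYCN rose under ARA-C (1.03) and doxorubicin (2.12). NFYA, a subunit of the factor that binds CCAAT boxes, fell under ARA-C (-1.56) and doxorubicin (-0.68). NR1I3, near the floor, rose under ARA-C (1.03). EGR1 fell under doxorubicin (-0.5) and rose under puromycin (0.47). SP1 and AHR fell under puromycin (-1.56 and -0.75). Links between these factors and the transporters were not tested.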

How the data were processed

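The members, gene lists and comparisons were chosen with earlier results of these data known. The intensity values are linear MAS5 signals of plate-format Affymetrix arrays, which the authors deposited after scaling each array to a common mean. The MAS5 version and detection calls are not given in the sources used here. Gene names came from the platform annotation and coordinates and upstream windows from RefSeq (GRCh38.p14). Groups came from the labels and plate rows from the study's sample list. Control probe sets were left out of the fit. Signals under 10 were raised to 10, those over 16000 lowered to 16000, and log2 was taken. One fit of group means over 67 arrays used limma 3.58.1 in R 4.3.3 with an intensity trend (residual df 46, prior df 5.036), and the Benjamini-Hochberg adjustment ran over all 22215 tested probe sets (threshold 0.05). Intervals are 95% intervals of that fit. Near the floor means a mean log2 signal under that of 32. The leading probe set of a gene is that of highest mean log2 signal. Named genes are the members, up to 4 called genes of largest change per list and EC50 comparison, and the 3 of most similar pattern. The test was also run on simulated data, and no outcome of that run is given here. No support is drawn from it for calls near the floor or in the smallest groups. Alternatives, changed 1 at a time, were quantile normalization, a common median, a floor of 32 or 1, no cap, no dim probe sets, the compared groups only, the left-out array kept, plate rows as a block or matched, a replicate block, no trend, and each array left out. Added after seeing the data were the ACTB covariate, leaving out 2 arrays of raised dim signals, the days 3-5 means and the day 5 against 24 h comparison. The number of arrays limits the precision.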

Additional observations from a re-analysis of the deposited data

Results flagged for a closer look

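Across the 30 sets of 5 or 6 vehicle arrays looked at for the 10 probe sets, 3 held an array far from the rest by Dixon's criterion on the floored log2 scale. Chance gives this in about 1 of 20 sets of normal values, a rate that does not hold where arrays are set to the floor. ABCB1 209993_at read 18.57 in replicate 2 of vehicle day 3, while the other 4 arrays were at the floor, where any single array above it meets the criterion. The ABCC4 control probe set HC-AF071202_at read 188.6 in the same array, the lowest of a group that reached 310.4. ABCC5 read 300.5 in replicate 3 of vehicle day 5, the lowest of a group that reached 429.9.

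For 12 pairs of probe set and treatment, the change against vehicle differed between day 5 and 24 h in the limma test of that difference. Under ARA-C at 0.17 μM the differences were -1.41 for ABCC1 202804_at, -1.16 for ABCC1 202805_s_at and -0.85 for ABCC4. Under ARA-C at 0.34 μM they were -0.54 for ABCC1 202804_at, -1.38 for ABCC1 202805_s_at and 0.76 for ABCC5. Under doxorubicin at 59.88 nM ABCC1 202804_at differed by -0.51. Under doxorubicin at 119.76 nM they were 3.06 for ABCB1 209993_at, -0.87 for ABCC1 202804_at, -1.29 for ABCC1 202805_s_at, 2.29 for ABCC3 214979_at and -1.93 for ABCC4. Of these 12, those of ABCC1 202805_s_at and ABCC4 under ARA-C at 0.17 μM, and of ABCC1 202805_s_at and ABCC3 under doxorubicin at 119.76 nM, did not pass with the ACTB ratio as a covariate (-0.45, -0.43, -0.17 and 0.94). Those of ABCC1 202804_at under ARA-C at 0.34 μM and under doxorubicin at 59.88 nM were lost on leaving out any 1 of several arrays (the smallest values being -0.42 and -0.39), and that of ABCB1 did not pass with a floor of 1 (3.8, adjusted p = 0.059).

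The array of puromycin at 0.09 μM on day 5 that was left out had signals above all 67 arrays used for 5 of the 10 probe sets. ABCG2 read 5788 there against at most 56.33 elsewhere, ABCC4 203196_at 7324 against 3009, and HC-AF071202_at 871.9 against 553.6. ABCC5 read 1421 against 1020 and ABCB1 209993_at 103.8 against 89.96. The summed signal of the blood cell markers was 89840 in this array, and its part in these values was not tested.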

How the results depend on the processing

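Of 53 changes past the threshold, 13 passed in the same direction under every alternative that gave them a value, apart from leaving out single arrays, which is counted separately. The alternatives that lost most calls were the ACTB ratio as a covariate (21), quantile normalization (18), keeping the left-out array (15) and a common median (13). In all, 22 were lost on leaving out 1 array or another, and 4 changed direction. After quantile normalization ABCC4 under ARA-C at 0.17 μM on day 5, ABCC1 202804_at under doxorubicin at 119.76 nM on day 5 and ABCC4 under puromycin at 0.18 μM on day 5 each stood at 0.07, and with the ACTB covariate ABCC3 214979_at under doxorubicin at 119.76 nM on day 5 stood at -0.08. The causes were not tested. The number of arrays and the floor limit what can be seen of ABCB1, ABCC3 and ABCG2.

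Rises under ARA-C numbered 2. They were 5 after quantile normalization, 4 with a floor of 32, 1 with a floor of 1, 4 with the compared groups only, and 1 to 6 on leaving out single arrays, with 6 without replicate 1 of ARA-C at 0.17 μM on day 3. Falls under ARA-C numbered 7 and were 4 with the ACTB covariate and 6 to 8 without single arrays. Rises under doxorubicin numbered 11. They were 7 with a floor of 1, 4 without dim probe sets, 7 with the left-out array kept, 7 against vehicle of the same plate rows, and 8 to 12 without single arrays. Without dim probe sets, here and for puromycin, only those of ABCC1, ABCC4 and ABCC5 remained, so that fewer pairs were counted. Falls under doxorubicin numbered 5 and were 3 with the covariate and 4 to 7 without single arrays. Rises under puromycin numbered 2. They were 7 after the common median, 0 with a floor of 1 or without dim probe sets, 4 with the left-out array kept, 1 with plate rows as a block or matched, 1 with the covariate, and 0 to 2 without single arrays. Falls under puromycin numbered 5. They were 1 after quantile normalization, 2 after the common median, 3 with plate rows as a block, 2 with the covariate, and 2 to 5 without single arrays, with 2 without the lone array of 0.18 μM on day 5. The vehicle change with time was 0 after the common median. The 8 differences between compounds were 5 with the left-out array kept and 6 to 9 without single arrays. No member differed between doses under any alternative that was run, and the 12 differences between day 5 and 24 h ranged from 8 to 15.

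Same-numbered replicates did not deviate together (43 pairs, correlations from -0.1 to 0.11, median -0.01), so the numbers do not pair the arrays. With the replicate block 9 of the 53 changes did not pass, and rises under puromycin were 1 and falls 3.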
